A study of Mus musculus with 18 samples.

Results

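The genes described here are 9 components of the alternative and terminal arms of complement, namely *C3*, *Cfb*, *Cfi*, *Hc* (the mouse gene for C5), *C6*, *C8a*, *C8b*, *C8g* and *C9*. They were chosen by name and matched to Ensembl identifiers, and all 9 were found among the 22524 genes counted in each liver. All 9 also passed the filter on low counts. Liver RNA was sequenced from 10 A226Y mice and 8 WT mice, with 1 library per mouse. The mice of both groups were females of strain C57BL/6, aged 15 months. The A226Y mice carried 1 knock-in copy of *Rps2* with the A226Y change, which lowers the accuracy of the ribosome, made in 129/Sv stem cells and crossed back to C57BL/6. In these mice Cre under the ubiquitous CMV promoter removed a loxP-flanked stop cassette from that copy. Removal was incomplete, so their livers were mosaics of cells that use the mutant copy and cells with only the normal copy active. The WT mice also carried CMV-Cre but had 2 normal copies of *Rps2*. Mice with the unexcised cassette alone were not analysed here. Mice are called by the animal numbers of their labels, and p-values measure the spread between these mice.

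Complement is a set of plasma proteins made for the most part by hepatocytes. In the alternative pathway the product of *C3* binds to a surface, factor B (*Cfb*) joins it to form the convertase, and factor I (*Cfi*) cuts and inactivates the bound fragments. Convertases then cleave C5 (*Hc*), and its larger fragment recruits C6, C7, C8 and C9 to build the membrane attack complex. C8 is assembled from 3 chains, of which the alpha and beta chains (*C8a* and *C8b*) belong to the same protein family as C6, C7 and C9, whereas the gamma chain (*C8g*) is a lipocalin. Several complement genes, *C3* and *Cfb* among them, are known to be induced in the liver during the acute phase response to inflammation.

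Total counts ranged from 23850565 to 62126131 in the A226Y livers and from 25869192 to 34918732 in the WT livers, and the lowest count of any of the 9 genes in any mouse was 349. Levels below are in CPM, which are counts scaled to library size with TMM. As a check of the labels, *Rps2* lay between 46.9 and 83.0 CPM in the A226Y mice and between 104 and 143 CPM in the WT mice, so that the groups did not overlap (log2 fold change −0.73, standard error 0.11, edgeR adjusted p = 0.000772). Hepatocyte markers were abundant in every library, with 10 of them summing to between 83200 and 184000 CPM. In each group 1 mouse stood apart for the genes described here. A226Y mouse 29 had the highest level of 8 of the 9 genes among the A226Y mice and the lowest level of the remaining one, *C8g*. WT mouse 33 had the highest level of the same 8 genes among the WT mice. The summed level of 21 acute phase genes was 80300 CPM in mouse 29 and between 19200 and 25500 CPM in the other A226Y mice. It was 56900 CPM in mouse 33 and between 19600 and 35500 CPM in the other WT mice. Results are therefore given with all 18 mice and without these 2. Because the 2 mice were singled out by the levels of these same genes, values without them describe the other 16 mice and are no independent support for a difference.

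Positions are those of GRCm38 with GENCODE M21 gene models. *C8a* (chr4:104815679-104876398, minus strand) and *C8b* (chr4:104766317-104804548, plus strand) point towards each other with 11130 bases between their ends. *C8g* is on another chromosome (chr2:25498651-25501719, minus strand), as is *Hc* (chr2:34983331-35061438, minus strand). *C6* (chr15:4727175-4814967, plus strand) and *C9* (chr15:6445327-6498751, plus strand) share a chromosome, and *Cfi* is at chr3:129835884-129875332 on the plus strand. *C3* (chr17:57203970-57228136, minus strand) and *Cfb* (chr17:34856374-34862518, minus strand) are on the chromosome of *Rps2*, 32.5 and 10.1 Mb away from it. *Cfb* shares 79.5% of its exon bases with *Gm20547*, a read-through transcript from the neighbouring *C2* gene on the same strand. The counts of *Gm20547* were between 99.33% and 101.7% of those of *Cfb* in every mouse, so the reads of both cannot be told apart and the level of *Cfb* is uncertain. No strand setting is given in the sources used here, but no other gene counted in these libraries shared exon bases with any of the 9 genes.

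RefSeq promoter windows (GRCm38.p6) were found for 7 of the 9 genes, the exceptions being *Cfb* and *Cfi*. The windows of the 3 C8 chains are shown because *C8g* varied differently between mice from the other 2 parts of this protein. Those of *C3* and *C9* hold a C/EBP match, the type of site used by a transcription factor family of the acute phase response. Each is the 250 bases before the transcription start, 5′ to 3′ on the strand of the gene, at chr4:104876399-104876648 (minus strand) for *C8a*, chr4:104766067-104766316 (plus strand) for *C8b*, chr2:25501720-25501969 (minus strand) for *C8g*, chr17:57228137-57228386 (minus strand) for *C3* and chr15:6445096-6445345 (plus strand) for *C9*. Capitals mark matches, on either strand, to the partial HNF1 site GTTAAT, the C/EBP motif TTGCNNAA and the STAT motif TTCNNNGAA.
C8a promoter: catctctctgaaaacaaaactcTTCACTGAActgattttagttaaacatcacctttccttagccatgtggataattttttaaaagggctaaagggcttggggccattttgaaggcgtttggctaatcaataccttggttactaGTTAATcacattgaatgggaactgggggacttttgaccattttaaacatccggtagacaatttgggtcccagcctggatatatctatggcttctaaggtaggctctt
C8b promoter: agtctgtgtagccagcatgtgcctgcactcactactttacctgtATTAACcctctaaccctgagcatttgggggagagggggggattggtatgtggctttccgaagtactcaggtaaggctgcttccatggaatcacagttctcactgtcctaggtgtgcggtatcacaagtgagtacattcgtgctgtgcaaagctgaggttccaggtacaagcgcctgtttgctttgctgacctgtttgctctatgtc
C8g promoter: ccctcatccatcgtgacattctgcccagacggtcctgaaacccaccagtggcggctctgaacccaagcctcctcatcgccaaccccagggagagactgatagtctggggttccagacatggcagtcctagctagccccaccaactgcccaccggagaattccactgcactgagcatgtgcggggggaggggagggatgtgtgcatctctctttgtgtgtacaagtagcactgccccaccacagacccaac
C3 promoter: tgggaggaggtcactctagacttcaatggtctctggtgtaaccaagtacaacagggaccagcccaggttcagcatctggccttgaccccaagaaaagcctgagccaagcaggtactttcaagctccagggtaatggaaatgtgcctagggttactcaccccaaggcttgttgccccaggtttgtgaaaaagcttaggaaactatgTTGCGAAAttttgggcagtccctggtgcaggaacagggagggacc
C9 promoter: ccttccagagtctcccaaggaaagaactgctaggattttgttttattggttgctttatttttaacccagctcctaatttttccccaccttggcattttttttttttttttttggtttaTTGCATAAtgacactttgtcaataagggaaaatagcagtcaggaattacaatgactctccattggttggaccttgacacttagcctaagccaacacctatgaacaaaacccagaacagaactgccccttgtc
The partial HNF1 site GTTAAT was found in the windows of *C8a* (107 bases before the start), *C8b* (206 bases before it) and *Hc* (74 bases before it), and in 6.44% of all 32817 promoter windows. The C/EBP motif TTGCNNAA was found 45 bases before the start of *C3* and 132 bases before that of *C9*, and in 9.57% of all windows. The STAT motif TTCNNNGAA was found in the window of *C8a* only among the 7 genes, and in 7.01% of all windows. AGGTCA, a partial site of nuclear receptors, was present in the windows of *C3*, *C6* and *C8b* and in 14% of all windows, and the TATA box TATAAA in that of *Hc* and in 12.4% of all. The HNF4 motif CAAAGGTCA (0.427% of all windows) and GGNNTTTCC, part of the NF-kB site (4.93%), were in none of the 7. The AGGTCA letters are contained in the HNF4 motif. Neither of the 2 windows listed for *C8g* held any of the 7 motifs. These matches describe letters and not binding.

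Between the genotypes, *C8g* was the single gene of the 9 that passed an adjusted p of 0.05 in edgeR, and it was lower in the A226Y mice by 22.4%. DESeq2 called 3 lower (*Cfb*, *Cfi* and *C8g*). None of the 9 was higher at that threshold in edgeR or DESeq2, or at an unadjusted p under 0.05. At an unadjusted p under 0.05 in edgeR, 3 of the 9 were lower, beside 1967 of all 13353 tested genes. At an adjusted p of 0.05, 7.03% of all tested genes were lower and 7.27% were higher in edgeR. In DESeq2 8.77% were lower. With library size as the only scaling, 67.9% of all called genes were higher in place of 50.8%, and *C8g* was still the single edgeR call among the 9 genes. The sign of the log2 fold change was negative for 8 of the 9 genes, with a median of −0.34, and for 6804 of all tested genes, with a median of −0.004. Without A226Y mouse 29 and WT mouse 33, 6 of the 9 genes were lower (*C3*, *Cfb*, *Cfi*, *C6*, *C8g* and *C9*), and the share of lower genes over the table was 9.13%. Leaving out mouse 29 alone also gave 6 lower genes, beside 10.3% over the table. *C3*, *Cfb*, *Cfi*, *C6* and *C9* passed in 1 of the 18 fits that each left out 1 mouse, the one without mouse 29. *Cfb*, *Cfi* and *C8g* are also on a list of complement and coagulation genes that the study drew from these same mice, so their direction is not independent evidence. The study drew that list at p < 0.05 and named no adjustment for it. In edgeR here *Cfb* and *Cfi* had p = 0.0163 and 0.0154 before adjustment, and neither passed after it.

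**Figure D1:**
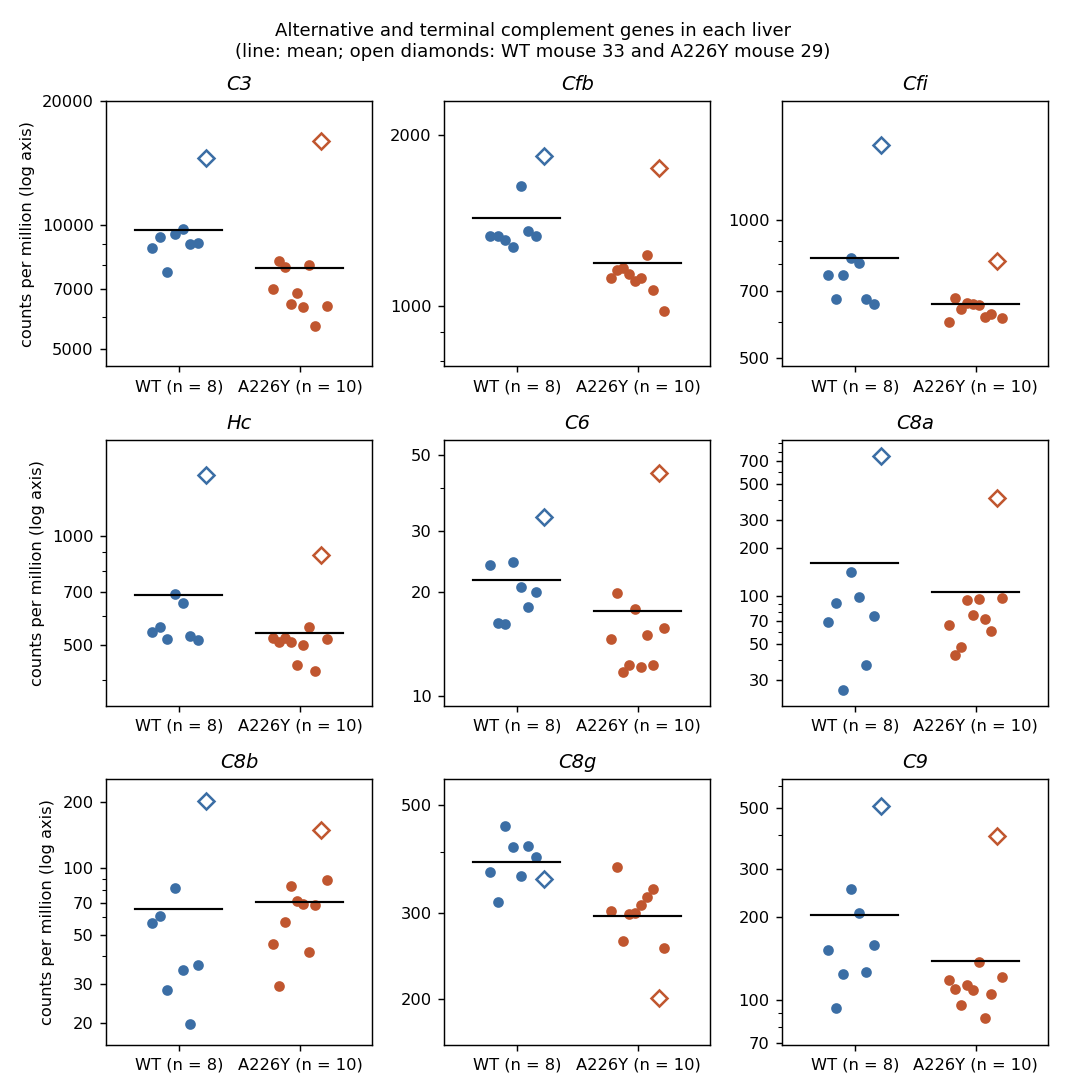
Level of each gene in every liver (vertical log axes, CPM) for 8 WT mice (blue) and 10 A226Y mice (orange), with a line at each mean and open diamonds for WT mouse 33 and A226Y mouse 29. The diamonds sit on top in both groups for 8 genes, whereas for *C8g* mouse 29 is the lowest A226Y mouse at 201 CPM.

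*C3*, the central component and the most abundant of the 9, ranged from 5680 to 16000 CPM in the A226Y mice, with a median of 6920 CPM, and from 7690 to 14500 CPM in the WT mice, with a median of 9220 CPM. Of the 10 A226Y mice, 6 were below the lowest WT mouse and 1, mouse 29, was above the highest. The means were 7870 ± 2970 CPM (SD, n = 10) and 9710 ± 2020 CPM (SD, n = 8), and the log2 fold change of −0.30 (standard error 0.17, 95% interval −0.64 to 0.03) did not pass (edgeR adjusted p = 0.243). A two-sided exact permutation test of log2 CPM, over every way to divide the 18 mice, gave p = 0.0586. This test was not adjusted over the 9 genes. It gave p = 0.164 for *Hc*, 0.113 for *C6*, 0.144 for *C9*, 0.832 for *C8a* and 0.394 for *C8b*, and the others are given below. Without the 2 mice the level of *C3* was 6970 ± 878 CPM (SD, n = 9) against 9030 ± 680 CPM (SD, n = 7). The log2 fold change was then −0.37 (standard error 0.08, edgeR adjusted p = 0.00616). It was −0.48 without mouse 29 alone (adjusted p = 0.00642) and −0.20 without mouse 33 alone (adjusted p = 0.444).

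*Cfb*, the factor B gene, ranged from 980 to 1750 CPM (median 1130) in the A226Y mice and from 1270 to 1840 CPM (median 1330) in the WT mice. All A226Y mice other than mouse 29 were below the lowest WT mouse, the clearest separation of the 9 genes by this count. The means were 1190 ± 209 CPM (SD, n = 10) and 1430 ± 200 CPM (SD, n = 8). The log2 fold change was −0.27 (standard error 0.10, edgeR adjusted p = 0.0814), with a two-sided exact permutation p of 0.0131. Without the 2 mice it was −0.28 (standard error 0.06, adjusted p = 0.0058), without mouse 29 alone −0.34 (adjusted p = 0.00512) and without mouse 33 alone −0.21 (adjusted p = 0.156). *Gm20547*, whose reads cannot be separated from those of *Cfb*, had the same log2 fold change of −0.27.

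*Cfi*, the gene of the inactivating protease, ranged from 598 to 816 CPM (median 646) in the A226Y mice and from 654 to 1460 CPM (median 759) in the WT mice. All A226Y mice were below the WT mean and 7 were below the lowest WT mouse. The means were 654 ± 62.2 CPM (SD, n = 10) and 826 ± 265 CPM (SD, n = 8). For *Cfi* the log2 fold change was −0.34 (standard error 0.13, edgeR adjusted p = 0.0785) and the two-sided exact permutation p was 0.00688. It was smaller without the 2 mice, at −0.21 (standard error 0.06, adjusted p = 0.0206). WT mouse 33 carried 1460 CPM, and no other WT mouse exceeded 826 CPM. Without that mouse alone the value was −0.17 (adjusted p = 0.123), and without A226Y mouse 29 alone it was −0.38 (adjusted p = 0.0415). *Cfb* and *Cfi* also passed under DESeq2, with log2 fold changes of −0.26 and −0.34 (adjusted p = 0.0446 and 0.0466).

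**Figure D2:**
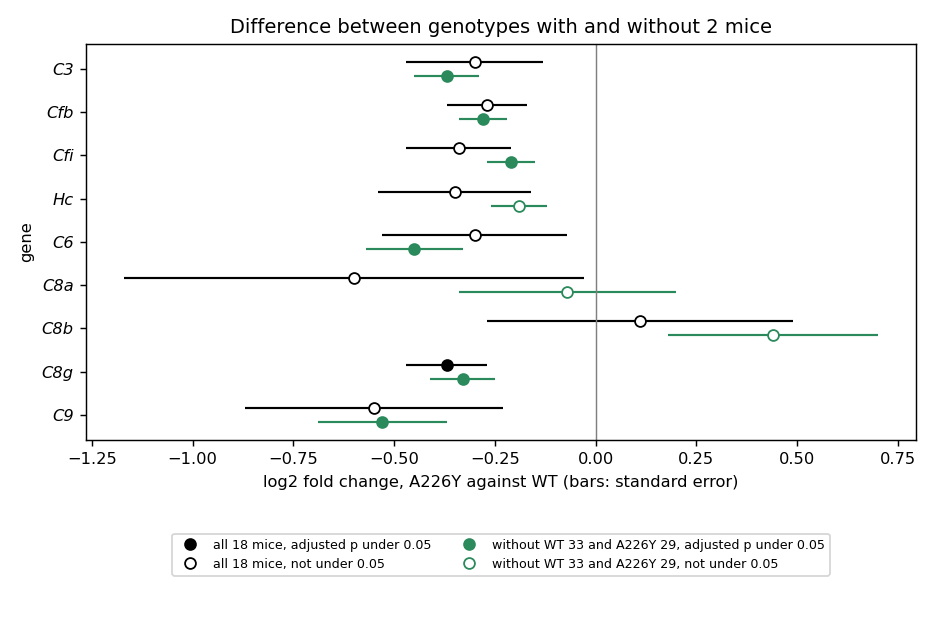
Log2 fold change of each gene, A226Y against WT, with its standard error, for all 18 mice (black) and without WT mouse 33 and A226Y mouse 29 (green), where filled points have an adjusted p under 0.05. *C8g* is filled in both, *C3*, *Cfb*, *Cfi*, *C6* and *C9* are filled in the second, and *C8b* lies to the right of 0 in both.

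In the terminal pathway, *Hc* encodes C5, whose cleavage starts membrane attack. It ranged from 425 to 886 CPM (median 515) in the A226Y mice and from 516 to 1470 CPM (median 552) in the WT mice. The groups overlapped, with 5 of the 10 A226Y mice below the lowest WT mouse. Its log2 fold change was −0.35 (standard error 0.19, edgeR adjusted p = 0.228) and rested in part on WT mouse 33, without which it was −0.09 (adjusted p = 0.667). Without both mice it was −0.19 (standard error 0.07, adjusted p = 0.0789), and without A226Y mouse 29 alone −0.45 (adjusted p = 0.0702).

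*C9* encodes the protein that polymerises into the wall of the membrane pore. It ranged from 85.9 to 395 CPM (median 112) in the A226Y mice and from 93.4 to 510 CPM (median 156) in the WT mice. Of the A226Y mice 9 were below the WT mean, but 1 was below the lowest WT mouse, so the ranges overlapped almost entirely. The log2 fold change was −0.55 (standard error 0.32, edgeR adjusted p = 0.26). It was −0.20 without WT mouse 33 (adjusted p = 0.667), −0.88 without A226Y mouse 29 (adjusted p = 0.0192) and −0.53 without both (standard error 0.16, adjusted p = 0.026). The WT mice were also more spread than the A226Y mice once both were left out, with coefficients of variation of 34.3% and 13.5%.

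*C6*, the first protein to join C5b, was the least expressed of the 9 genes. It ranged from 11.7 to 44.1 CPM (median 14.8) in the A226Y mice and from 16.2 to 32.9 CPM (median 20.4) in the WT mice. Of the A226Y mice 7 were below the lowest WT mouse and mouse 29 was above the highest. The log2 fold change was −0.30 (standard error 0.23, edgeR adjusted p = 0.4). It was −0.57 without A226Y mouse 29 (adjusted p = 0.0091) and −0.19 without WT mouse 33 (adjusted p = 0.626). Without both it was −0.45 (standard error 0.12, adjusted p = 0.0155), and the level was 14.6 ± 2.87 CPM (SD, n = 9) against 20 ± 3.36 CPM (SD, n = 7).

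*C6* moved between mice together with the markers of Kupffer cells, the resident macrophages of the liver. Among 11932 genes its closest match over the 18 mice, after centring each genotype on its own mean, was *Pirb*, an inhibitory receptor of myeloid cells (Pearson r = 0.974, and 0.908 without the 2 mice). The relation of each of the 9 genes to the summed level of 8 Kupffer cell markers was therefore computed within each genotype, a choice made after that match was seen. Since *Pirb* was found in these same mice, the p-values below are no independent support for *C6*, and their adjustment leaves out that search. Relations to the other cell type lists are not given. For *C6* Pearson r was 0.94 in the A226Y mice (n = 10, permutation p = 0.00026, adjusted over 18 relations 0.00468) and 0.88 in the WT mice (n = 8, exact permutation p = 0.00429, adjusted 0.0257). Spearman's rho was 0.85 and 0.93 (permutation p = 0.00286 and exact permutation p = 0.00223, adjusted 0.0172 for both). With the 2 mice farthest from the median marker level left out of each group, r was still 0.75 and 0.76. *C6* was the single gene of the 9 whose r and rho passed in both genotypes. *C9* passed in the WT mice (r = 0.92, n = 8, exact permutation p = 0.00102, adjusted 0.00915, with r = 0.86 without the 2 farthest mice) and not in the A226Y mice (r = 0.74, n = 10, permutation p = 0.0554, adjusted 0.0997). There it rested on mice 29 and 5, without which r was −0.09. *C3* passed in the A226Y mice by r (0.86, n = 10, permutation p = 0.00591, adjusted 0.0266), but r was 0.30 without its 2 farthest mice. For *C8g* r was −0.34 and 0.15. The markers themselves lay between 278 and 1080 CPM (median 377) in the A226Y mice and between 416 and 841 CPM in the WT mice (median 604). Of the 8 markers, 1 was lower in the A226Y mice (*Clec4f*, log2 fold change −0.65, edgeR adjusted p = 0.0261, and 0.0577 without WT mouse 14) and 5 were lower without mouse 29. The shares of lower genes over the table were 7.03% and 10.3%. *Marco* had a positive value, 0.83 with all mice and 0.27 without mouse 29 (edgeR adjusted p = 0.294 and 0.686). The part of Kupffer cells in the difference of *C6* was not tested. In whole liver, fewer cells of a type and less RNA per cell cannot be told apart.

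**Figure D3:**
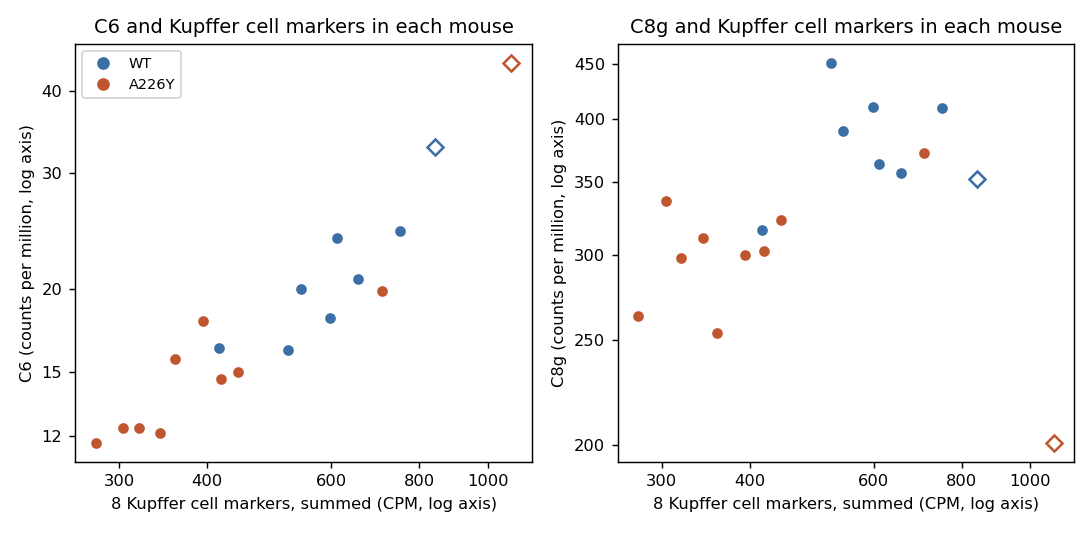
Level of *C6* (left) and *C8g* (right) against the summed level of 8 Kupffer cell markers in each liver (log axes, CPM), for WT mice (blue) and A226Y mice (orange), with open diamonds for WT mouse 33 and A226Y mouse 29. *C6* rises along the marker axis in both genotypes, from 11.7 CPM in A226Y mouse 7 to 44.1 CPM in mouse 29, whereas *C8g* shows no such order.

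Of the 3 chains of C8, *C8a* and *C8b* varied together between mice and *C8g* did not follow them. *C8g*, the lipocalin chain, ranged from 201 to 372 CPM (median 301) in the A226Y mice and from 316 to 451 CPM (median 377) in the WT mice. All 10 A226Y mice were below the WT mean and 7 were below the lowest WT mouse. The means were 296 ± 47.5 CPM (SD, n = 10) and 381 ± 42.4 CPM (SD, n = 8), and the log2 fold change was −0.37 (standard error 0.10, 95% interval −0.56 to −0.17, edgeR adjusted p = 0.0179, two-sided exact permutation p = 0.00117). The call held in all 18 fits that left out 1 mouse (log2 fold change −0.41 to −0.31, adjusted p between 0.0089 and 0.0411) and without the 2 mice (−0.33, standard error 0.08, adjusted p = 0.0117). It was lost with a correction for gene length in each library (−0.28, adjusted p = 0.0634), for GC content (−0.31, adjusted p = 0.0565) or for 4 surrogate variables (−0.20, adjusted p = 0.129), with the direction kept.

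*C8a*, the alpha chain that enters the membrane, was the most variable of the 9 genes in both genotypes. It ranged from 43.0 to 410 CPM (median 74.3) in the A226Y mice and from 25.9 to 756 CPM (median 82.4) in the WT mice, with coefficients of variation of 102% and 150%. The extremes were mice 5 and 29 among the A226Y mice and mice 13 and 33 among the WT mice, and no A226Y mouse fell outside the WT range. Its log2 fold change of −0.60 (standard error 0.57, 95% interval −1.72 to 0.52, edgeR adjusted p = 0.508) was −1.15 without A226Y mouse 29 (adjusted p = 0.114), 0.47 without WT mouse 33 (adjusted p = 0.494) and −0.07 without both mice (adjusted p = 0.883). With all 18 mice DESeq2 gave 0.46 (adjusted p = 0.485), but by default it had replaced the outlying *C8a* count of WT mouse 33. With no count replaced it gave −0.61 (standard error 0.60, adjusted p = 0.524), so the sign turned with that mouse. Even without these mice the WT livers spread widely, with a coefficient of variation of 50.6% against 28.2% in the A226Y livers.

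*C8b*, the beta chain through which C8 binds the growing complex, ranged from 29.4 to 150 CPM (median 68.5) in the A226Y mice and from 19.8 to 203 CPM (median 46.5) in the WT mice. It was the single gene of the 9 with a positive log2 fold change, 0.11 (standard error 0.38, 95% interval −0.63 to 0.85, edgeR adjusted p = 0.876), and the groups overlapped fully. The value was −0.08 without A226Y mouse 29, 0.63 without WT mouse 33 and 0.44 without both (adjusted p = 0.902, 0.167 and 0.252). Neither a direction nor its absence was thus established for *C8b*.

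Within each genotype *C8a* and *C8b* rose and fell together. Pearson r was 0.84 in the A226Y mice (n = 10, permutation p = 0.00155, adjusted over 18 relations 0.00982) and 0.92 in the WT mice (n = 8, exact permutation p = 0.00258, adjusted 0.0116). Spearman's rho was 0.85 (permutation p = 0.00265, adjusted 0.0261) and 0.81 (exact permutation p = 0.0218, adjusted 0.0653). Without the 2 mice farthest from the median of *C8a*, r was 0.56 in the A226Y mice and 0.82 in the WT mice. *C8g* ran against both chains in the A226Y mice, with r = −0.81 for *C8a* (n = 10, permutation p = 0.0128, adjusted 0.0231) and −0.82 for *C8b* (n = 10, permutation p = 0.00475, adjusted 0.0124). The values of rho were −0.65 and −0.78 (permutation, adjusted p = 0.126 and 0.062). Both relations rested on mice 29 and 5, without which r was −0.04 and −0.36. In the WT mice r was −0.52 and −0.47, and rho −0.64 and −0.62, none of which passed (exact permutation, adjusted p between 0.188 and 0.237).

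The ratio of the chains within a library does not depend on scaling. *C8g* carried between 0.49 times the CPM of *C8a* (mouse 29) and 8.66 times (mouse 5) in the A226Y mice, and between 0.466 times (mouse 33) and 17.4 times (mouse 13) in the WT mice. The log2 ratios were compared between genotypes with two-sided exact permutation tests, adjusted over 8 ratios. For *C8a* to *C8b* the A226Y value was lower by 0.47 on the log2 scale (standard error 0.28, exact permutation p = 0.0978, adjusted 0.564). For *C8g* to *C8a* the difference was −0.25 (standard error 0.65, adjusted p = 0.714 by exact permutation) and for *C8g* to *C8b* it was −0.73 (standard error 0.48, adjusted p = 0.564 by exact permutation). Single mice moved these values, the ratio of *C8g* to *C8a* being −0.71 without WT mouse 33 and 0.06 without A226Y mouse 29 (adjusted p = 0.406 and 0.924 by exact permutation). The chains were therefore not shown to differ from each other in their change.

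**Figure D4:**
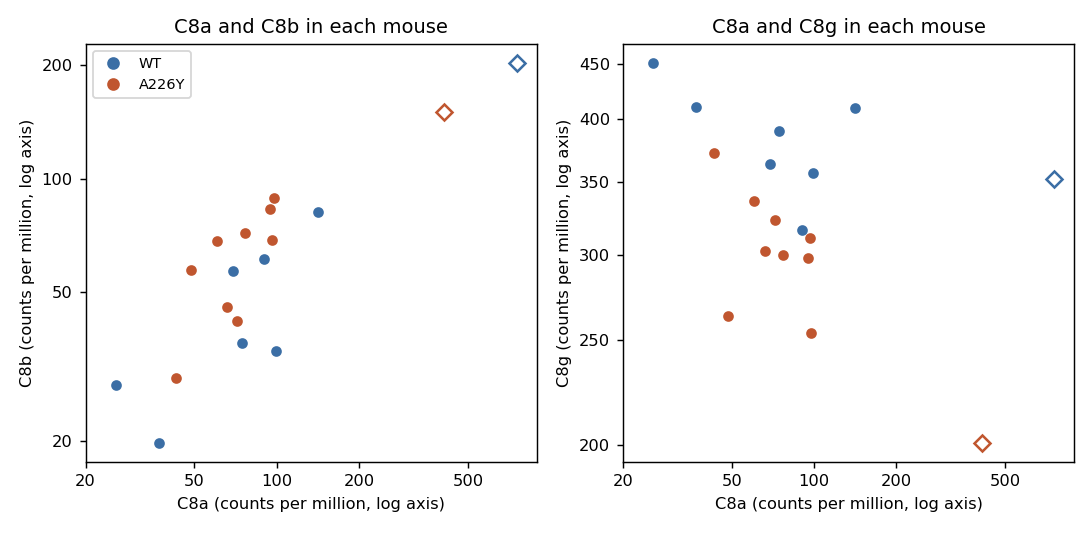
Level of *C8b* (left) and *C8g* (right) against that of *C8a* in each liver (log axes, CPM), for WT mice (blue) and A226Y mice (orange), with open diamonds for WT mouse 33 and A226Y mouse 29. *C8b* rises with *C8a*, whereas *C8g* is lowest, at 201 CPM, in A226Y mouse 29, which has 410 CPM of *C8a*.

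Divided by exon length, the WT levels were in the order *C3* (1890 CPM per kb), *Cfb* (504, uncertain because of *Gm20547*), *Cfi* (372), *C8g* (255), *Hc* (109), *C9* (79.7), *C8a* (44.4), *C8b* (25.6) and *C6* (6.07). The WT ranges of *C3* and *Cfb* did not overlap, and those of every other pair of neighbours did. Within single livers most of the order was kept. *Cfi* was above *C8g*, *C8g* above *Hc*, *Hc* above *C9* and *C8b* above *C6* in all 8 WT mice, and in at least 9 of the 10 A226Y mice. *Cfb* was above *Cfi* and *C9* above *C8a* in 7 of the 8 WT mice and in all 10 A226Y mice. *C8a* and *C8b* were not separated, with *C8a* higher per kb in 6 of 8 WT and 4 of 10 A226Y mice. Together the 9 genes took between 0.83% and 2.19% of all counts (median 0.984%) in the A226Y mice and between 1.06% and 1.89% in the WT mice (median 1.23%). *C3* made up 67.8% to 77.5% of that sum in the A226Y mice and 68.6% to 74.9% in the WT mice.

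No change in the proportions of the other genes to *C3* or *Hc* was detected. The log2 ratio to *C3* differed by 0.07 for *Cfb* (standard error 0.09), by 0.05 for *Cfi* (standard error 0.12) and by 0.06 for *Hc* (standard error 0.11), each with an adjusted p of 0.714 (exact permutation). The ratios of *C6* and *C9* to *Hc* differed by −0.11 and −0.23 (standard errors 0.16 and 0.18, exact permutation, adjusted p = 0.714 and 0.636). *C3* and *Cfb* rose and fell together within the A226Y mice (r = 0.95, n = 10, permutation p = 0.00141, adjusted 0.00982, rho = 0.85, adjusted 0.0261, and r = 0.71 without the 2 farthest mice). In the WT mice r was 0.85 (n = 8, exact permutation p = 0.0125, adjusted 0.0231), rho 0.43 (adjusted 0.359), and r 0.57 without the 2 farthest mice. For *C3* and *Hc* r was 0.95 in the WT mice (n = 8, exact permutation p = 0.00164, adjusted 0.00982, rho = 0.81, adjusted 0.0653, r = 0.81 without the 2 farthest). It was 0.94 in the A226Y mice (n = 10, permutation p = 0.00346, adjusted 0.0124, rho = 0.76, adjusted 0.0653), where it rested on mice 29 and 23 (r = 0.39 without them). *C3* with *Cfi*, *Hc* with *C6* and *Hc* with *C9* had r between 0.81 and 0.90 in both genotypes, but r between −0.37 and 0.51 without the 2 farthest mice, so these relations rested on those mice. The range of *Saa1*, an acute phase gene with 6100 CPM in mouse 29 and between 10.5 and 28.8 CPM in the other A226Y mice, gave no relation with *C3* that passed (rho = 0.05 in the A226Y mice, permutation p = 0.893, and 0.48 in the WT mice, exact permutation p = 0.243, with r = 0.87 and 0.57, adjusted 0.106 and 0.143, and −0.23 and 0.57 without the 2 farthest).

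Among the remaining alternative and terminal components, *Cfp* (properdin, which stabilises the convertase) had a log2 fold change of −0.12 (edgeR adjusted p = 0.809), which was −0.43 without A226Y mouse 29 (adjusted p = 0.0957). For *C7* it was 0.07 (adjusted p = 0.901), and 0.46 without WT mouse 33 (adjusted p = 0.239), at 0.365 ± 0.273 CPM (SD, n = 8) in the WT mice. *Cfd* was too low to be tested. Of 8 plasma regulators described here, 2 were lower in edgeR (3 in DESeq2, with *Vtn*) and none was higher, and the median log2 fold change was −0.31. These were *Cpn1* (−0.32, standard error 0.07, adjusted p = 0.00588) and *Cpn2* (−0.35, standard error 0.11, adjusted p = 0.0407), the chains of carboxypeptidase N, which inactivates the C3a and C5a peptides. The call of *Cpn1* held in all 18 fits that left out 1 mouse, whereas that of *Cpn2* held in 6 (adjusted p up to 0.0787, and 0.0706 without WT mouse 33). *Cpn1* was at 245 ± 22 CPM (SD, n = 10) against 306 ± 29.6 CPM (SD, n = 8), with 8 A226Y mice below the lowest WT mouse. The other 6 gave −0.33 for *Vtn*, −0.38 for *Serping1*, −0.31 for *C4bp*, −0.30 for *Cpb2*, −0.16 for *Clu* and 0.06 for *Cfhr2* (adjusted p from 0.0718 to 0.714). Without WT mouse 33 alone these were −0.24 for *Vtn*, −0.19 for *Serping1*, −0.12 for *C4bp*, −0.12 for *Cpb2*, −0.10 for *Clu* and 0.08 for *Cfhr2* (adjusted p from 0.147 to 0.677). Without A226Y mouse 29 alone *Vtn* (−0.41), *Serping1* (−0.49) and *Cpb2* (−0.48) passed (adjusted p = 0.0075, 0.0305 and 0.034), and *C4bp*, *Clu* and *Cfhr2* were at −0.38, −0.23 and 0.09 (adjusted p = 0.0987, 0.0688 and 0.443). *Cfhr2* belongs to a family of near-identical genes, so its counts are uncertain. With both mice left out 5 of the 8 were lower. Of 5 regulators on cells, *Cd59b*, an inhibitor of membrane attack, was lower (−0.79, standard error 0.22, adjusted p = 0.0236), at 1.46 ± 0.46 CPM (SD, n = 10) against 2.53 ± 0.718 CPM (SD, n = 8). Its call was lost without WT mouse 13 or WT mouse 14 (adjusted p = 0.0545 and 0.0578). *Cd59a* was at −0.22, *Cr1l* at −0.13, *Cd46* at 0.04 and *Cd55* at 0.19 (adjusted p from 0.0862 to 0.881). *Cd59a* and *Cd59b* are close paralogues, between which short reads may be split.

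Of 15 tested components of the classical and lectin pathways, 7 were lower and none was higher, and the median log2 fold change was −0.37. With these 2 mice left out 11 were lower. The lowest p-values were those of *Mbl2*, a mannose-binding lectin (−0.43, standard error 0.08, edgeR adjusted p = 0.00294), *C1s1*, a protease of the C1 complex (−0.50, standard error 0.11, adjusted p = 0.00563), and *Mbl1* (−0.33, standard error 0.08, adjusted p = 0.00767). *Mbl2* was at 379 ± 40.5 CPM (SD, n = 10) against 512 ± 60.9 CPM (SD, n = 8), with 9 A226Y mice below the lowest WT mouse. *Mbl1*, *Mbl2*, *C1s1* and *Cd59b* are also on the list that the study drew from these mice. Of 7 receptors none passed in either direction (edgeR, median −0.19), with 1 lower at an unadjusted p under 0.05 and 1 lower under DESeq2. The lowest p-values were those of *Vsig4*, a Kupffer cell receptor for C3b (−0.49, adjusted p = 0.065), *Itgax* (−0.51, adjusted p = 0.221) and *C5ar2* (−0.15, adjusted p = 0.473). Without A226Y mouse 29, 2 receptors were lower, among them *Vsig4* (−0.59, adjusted p = 0.0148). Without WT mouse 33 *Vsig4* was at −0.42, *Itgax* at −0.30 and *C5ar2* at −0.09 (adjusted p = 0.12, 0.466 and 0.709). *Vsig4* is also 1 of the 8 Kupffer cell markers whose sums are given above, and the part of these cells in the difference was not tested. None of the genes described in the 5 complement lists was higher under DESeq2 or at an unadjusted p under 0.05.

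**Figure D5:**
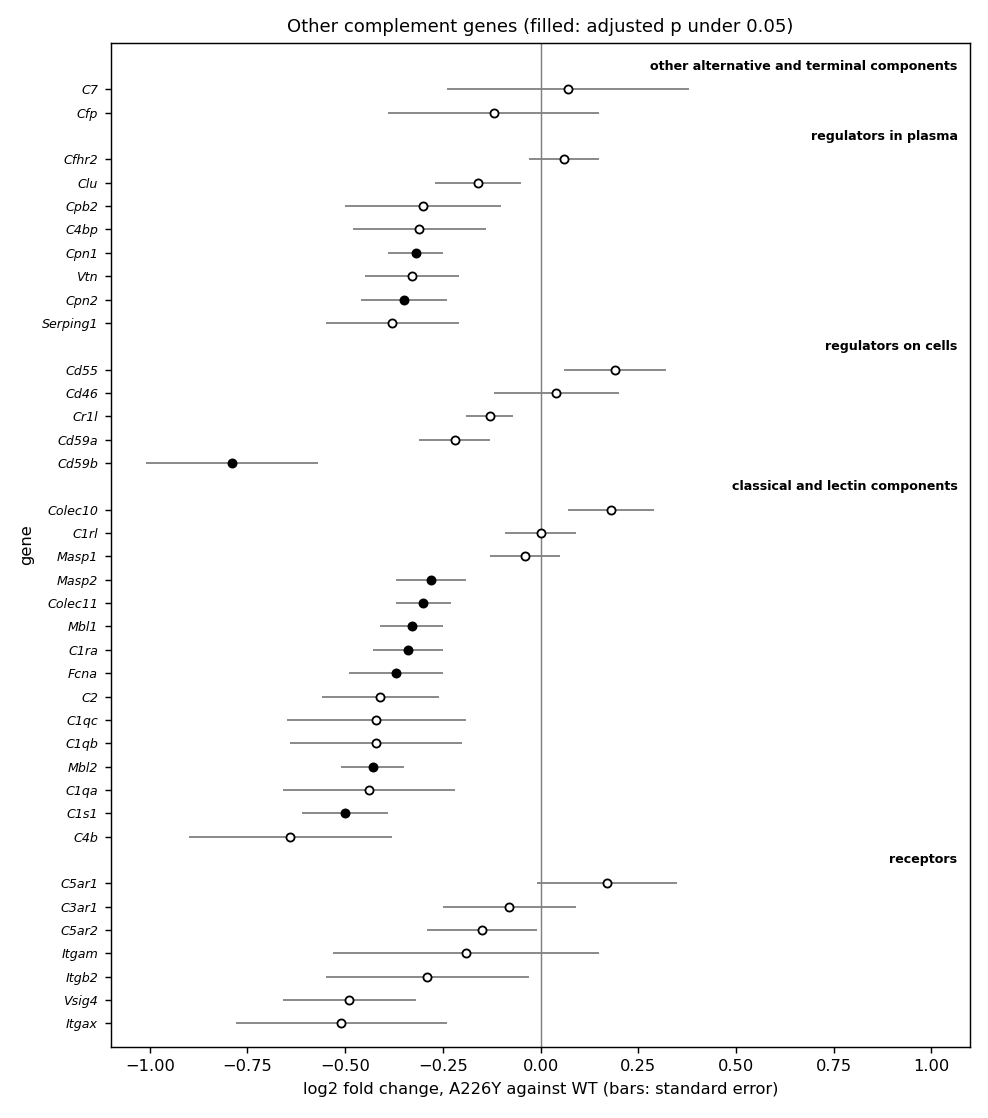
Log2 fold change with its standard error, A226Y against WT, of tested complement genes outside the 9, grouped by role, with filled points for an adjusted p under 0.05. All 10 filled points lie to the left of 0, 7 of them among the classical and lectin components.

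Transcription factors and signalling genes of hepatocytes, and other plasma proteins of the acute phase, were counted in the same way. Of 19 such regulators 1 was lower in edgeR (*Foxa2*, log2 fold change −0.33, adjusted p = 0.0148) and none was higher, with a median of −0.07. *Esr1* and *Cebpa* followed at −0.55 and −0.33 (adjusted p = 0.0508 and 0.0697). In DESeq2 4 of the 19 were lower, among them *Foxa2*, *Esr1* and *Cebpa* (adjusted p = 0.0046, 0.0233 and 0.0455). Of 21 acute phase genes *Saa4* was the single one lower in edgeR (−0.86, standard error 0.17, adjusted p = 0.00389) and none was higher, with a median of −0.04. DESeq2 called 4 lower by default and 1, *Saa4*, when it replaced no outlying count. The other 3 were *Saa1*, *Saa2* and *Orm1*, for each of which the count of mouse 29 had been replaced (that of WT mouse 14 too for *Saa1* and *Saa2*). *Saa2* was at 3.21 and *Orm2* at 1.80 (adjusted p = 0.183 and 0.28), both turning negative without mouse 29 (−3.02, adjusted p = 0.00349, and −1.20, adjusted p = 0.164). Without mouse 29, 7 of the 21 were lower and none was higher. With 4 surrogate variables neither *Foxa2* (−0.24, adjusted p = 0.238) nor *Saa4* (−0.41, adjusted p = 0.108) passed. The *Saa* and *Orm* genes belong to families of near-identical copies, so their counts are uncertain.

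Centred within genotype over the 18 mice, genes that closely followed the mean of the 9 were *Itih3* (Pearson r = 0.951), *Slc37a1* (0.938), *Kng1* (0.938) and *Fgb* (0.934). Without the 2 mice these values were 0.63, 0.415, 0.476 and 0.582, so the likeness rested in part on mice 29 and 33. The closest genes of single members were *Ptprj* for *C3* (0.951), *Itih1* for *Cfi* (0.94), *Atp11a* for *C8a* (0.916) and *Slc13a5* for *C8b* (0.887). Without the 2 mice these were 0.765, 0.703, 0.685 and 0.773. For *Cfb* it was *Gm20547* (0.999), which shares its reads. *C8g* was most like *Tmem59* (0.94), and this value changed little without the 2 mice (0.888). Over the 18 mice *C8g* was the single gene of the 9 whose centred level had a negative r with all 8 others (−0.62 to −0.27), and without the 2 mice its r lay between −0.51 and 0.29.

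Of 10 hepatocyte markers 1 was lower and 3 were higher (the lowest p was that of *Cps1*, log2 fold change 0.55, edgeR adjusted p = 0.0137), and the sums ranged from 83200 to 159000 CPM in the A226Y mice and from 101000 to 184000 CPM in the WT mice. Of 6 stellate cell markers *Col1a1* was lower (−0.77, edgeR adjusted p = 0.0162) and *Hgf* higher (0.34, adjusted p = 0.0207). With 4 surrogate variables *Cps1* was at 0.21, *Col1a1* at −0.63 and *Hgf* at 0.28, and none of them passed (adjusted p = 0.333, 0.138 and 0.209). With the GC offset *Hgf* did not pass either (adjusted p = 0.0618). None of the markers of B and plasma cells (6), T and NK cells (6), neutrophils (3), sinusoidal endothelium (6) or cholangiocytes (5) passed by edgeR. At an unadjusted p under 0.05 there were 0, 1, 1, 1 and 1 of them, and none passed under DESeq2. Without A226Y mouse 29, 1 marker of T and NK cells passed. The lowest p-values of these lists were those of *Ighm* (−1.0), *Cd3g* (−0.65), *Retnlg* (1.26), *Clec4g* (−0.21) and *Krt19* (0.53), with edgeR adjusted p-values of 0.219, 0.125, 0.151, 0.11 and 0.147. The value of *Ighm* was −0.27 without WT mouse 33, and that of *Retnlg* was 0.47 without A226Y mouse 29. The sums of the neutrophil markers were between 2.0 and 41.5 CPM in the A226Y mice and between 1.67 and 16.1 CPM in the WT mice. The highest were again mouse 29 (next 7.42 CPM) and mouse 33 (next 4.06 CPM), as they were for the Kupffer cell sums of 1080 and 841 CPM (next 708 and 750 CPM). Mouse 33 also had the highest sums of B and plasma cell markers (1100 CPM, next WT mouse 559) and of T and NK cell markers (9.16 CPM, next WT mouse 6.75), whereas mouse 29 was at 135 and 5.91 CPM, within the range of the other A226Y mice. The hepatocyte sum was the lowest of all 18 mice in mouse 29 (83200 CPM) and the highest in mouse 33 (184000 CPM). The part of these cells in the complement levels of the 2 livers was not tested.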

How the data were processed

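Liver RNA of 10 A226Y and 8 WT female mice was analysed, with 1 library per mouse and the groups taken from the sample labels. The authors deposited whole-number read counts of each Ensembl gene for each mouse, without normalization, while mice with the unexcised *Rps2* cassette were left out. The study's methods describe single-end reads quantified with RSEM, whereas the submitters' processing notes name STAR, featureCounts and GRCm38, and which of them made these counts is not given in the sources used here. Total counts of at least 23850565 keep counting error small beside the spread between mice. Symbols and positions were taken from GENCODE M21 (22214 of the 22524 identifiers matched) and promoters from RefSeq.

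As in the study, a gene was kept where it reached 10 counts in 50% or more of the mice of either genotype (13353 genes). The study names edgeR but no scaling or design. Here edgeR 4.0.16 (R 4.3.3) was used with TMM scaling and no covariate, and its quasi-likelihood test was fitted over all of them, with Benjamini-Hochberg adjustment and a threshold of 0.05. Single genes, ratios and correlations were compared on log2 CPM (prior count 2) with exact permutation tests, or with 100000 resamples for correlations of the 10 A226Y mice. Alternatives were other scalings, filters and tests (DESeq2 1.42.0, limma-voom 3.58.1), offsets for length and GC content, 4 surrogate variables (sva 3.50.0) and leaving out mice. DESeq2 without its replacement of outlying counts was added after the data were seen. The fits were tested on simulated data. The 9 genes, the lists and the tests were chosen with earlier results of these data known. Named beside the 9 genes are *Rps2*, the tested plasma and cell-bound regulators and other alternative and terminal components, the 3 genes with the lowest p of every other complement, regulator or acute phase list, the gene with the lowest p of each cell type list, and the genes most like the 9 over the mice. *Hgf*, *Gm20547*, *Orm1* and *Saa1* were named after their values were seen. Some genes that this rule would name, and that the lists would hold, are not reported here.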

Additional observations from a re-analysis of the deposited data

Results flagged for a closer look

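In 14 of the 18 combinations of a gene and a genotype, 1 mouse lay farther from its group than Dixon's criterion allows at the 95% level, where chance gives about 1 in 20. Each was the highest mouse of its group, and each was A226Y mouse 29 or WT mouse 33. The genes share these libraries, so the 14 cases are not independent. In mouse 29, *C3* was at 16000 CPM (next A226Y mouse 8190), *Cfb* at 1750 (next 1230), *Cfi* at 816 (next 675) and *Hc* at 886 CPM (next 559). In the same mouse *C6* was at 44.1 CPM (next 19.9), *C8a* at 410 (next 97.8), *C8b* at 150 (next 88.7) and *C9* at 395 CPM (next 138). In mouse 33, *C3* was at 14500 CPM (next WT mouse 9800), *Cfi* at 1460 (next 826) and *Hc* at 1470 CPM (next 689). There *C8a* was at 756 CPM (next 141), *C8b* at 203 (next 81.4) and *C9* at 510 CPM (next 255). The remaining combinations that were not outlying by this criterion were *Cfb* and *C6* in the WT mice and *C8g* in both genotypes. Mouse 29 also had the highest summed acute phase level among all 18 mice (80300 CPM) and mouse 33 the next highest (56900 CPM), while *Saa1* was at 6100 CPM in mouse 29 and at 267 CPM in mouse 33, below the 556 CPM of WT mouse 14.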

How the results depend on the processing

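No paired analysis was possible because the animal numbers of the labels are not shared between the genotypes. Of the 9 genes, 1 was lower with all mice, 3 with DESeq2, 0 with the GC offset, 0 with the length offset, 0 with surrogate variables and 6 without WT mouse 33 and A226Y mouse 29. The share of all tested genes that was lower in these fits was 7.03%, 8.77%, 6.05%, 5.89%, 1.02% and 9.13%. In the 18 fits that each left out 1 mouse, this number lay between 1 and 6, and the count of 6 came from leaving out A226Y mouse 29. Among all tested genes 1910 were called in either direction with all mice, 248 with surrogate variables and between 1255 and 2560 with 1 mouse left out, the lowest without WT mouse 14. In the lists of other complement genes 10 were lower with all mice, 18 without both mice, 0 with surrogate variables and between 6 and 20 with 1 mouse left out (6 without WT mouse 13 or WT mouse 14, and 20 without A226Y mouse 29). The cause of these shifts was not tested. No call among the 9 genes changed its direction. *Saa1* and *Saa2*, positive and not called with all mice, were called lower without A226Y mouse 29. The 8 ratios stayed on the same side of the threshold in all fits that left out 1 mouse and with another prior count. The lowest count of the 9 genes was 349 (*C6*), so counting error is small for them, while *C7* and *Cd59b*, at under 3 CPM in the mean, are less precise. With all 18 mice the standard error was 0.57 for *C8a*, so a change of the size seen in *C8g* could not be detected for it. Without WT mouse 33 and A226Y mouse 29 that standard error was 0.27.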
